A study of Mus musculus with 1187 samples.

Results

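The transcripts of 7 amino acid transporters of the blood-brain barrier, Slc7a5, Slc3a2, Slc7a1, Slc7a3, Slc38a3, Slc38a5 and Slc6a6, were followed across sorted brain endothelial cells. These genes were listed by name and are 7 of the 46517 gene rows of a table of read counts from 1187 cells. The cells came from C57BL/6 mice labelled as adult and, in the design text, as 3 months old. All mice carried a Cldn5-GFP reporter, which marks endothelium, and a Cspg4-DsRed reporter, which marks pericytes and oligodendrocyte precursors. GFP-positive, DsRed-negative cells were sorted into plate wells, and full-length polyadenylated cDNA was made from each by Smart-seq2, which uses no molecular identifiers. The labels name 590 cells of Pdgfb ret/+ mice and 597 of Pdgfb ret/ret mice, in which the growth factor that recruits pericytes lacks its retention motif and brain vessels have few pericytes. Animals are not named. Columns of the table are wells of named plates, whereas the labels only number the cells, so no cell could be given a genotype, and ret/ret was not compared with ret/+.

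All cells are therefore treated as 1 pooled sample, and the 4 plates (521, 522, 523 and 524, with 300, 290, 285 and 312 cells) as batches that may coincide with genotype or animal. With 1 sample no test was possible: differences are set against the spread over plates, and no p-value is given. Cells had 100779 to 584112 gene-assigned reads (median 360947). All 8 endothelial markers looked at were at 395 CPM or more (CPM, reads per 1000000 gene-assigned reads of the summed cells), the highest being Cldn5 at 4038 CPM. Among markers of other cell types, the highest of astrocytes was Gja1 at 185 CPM and the highest of pericytes Rgs5 at 32.4 CPM. There were 21 cells with 3 or more markers of another type at 100 CPM.

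The endothelium of brain vessels is sealed by tight junctions, so amino acids cross it through membrane carriers on its blood and brain faces. Slc7a5 encodes LAT1, the exchanger of large neutral amino acids such as leucine, phenylalanine and tyrosine, which also carries the drug L-DOPA. Slc3a2 encodes 4F2hc (CD98), the glycoprotein chain to which LAT1 is bound by a disulphide and which brings it to the membrane. Slc7a1 and Slc7a3 encode the cationic amino acid carriers CAT1 and CAT3, which move arginine, lysine and ornithine. Slc38a3 and Slc38a5 encode SNAT3 and SNAT5, sodium-coupled carriers of glutamine, histidine and asparagine. Slc6a6 encodes TauT, the sodium- and chloride-coupled carrier of taurine.

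On GRCm38 (GENCODE M21), Slc7a5 lies on chromosome 8 from 121881150 to 121907694 on the minus strand. Slc3a2 lies on chromosome 19 from 8706882 to 8723369, minus strand. Slc7a1 lies on chromosome 5 from 148327410 to 148399904, minus strand. Slc7a3 lies on chromosome X from 101079210 to 101086020, minus strand, and Slc38a5, also on X, from 8271133 to 8280179, plus strand. Slc38a3 lies on chromosome 9 from 107650634 to 107669530, minus strand, and Slc6a6 on chromosome 6 from 91684053 to 91759066, plus strand. No exon of another gene overlaps an exon of these genes, except 117 bases that Slc6a6 shares with Gm44981 on the opposite strand, where reads of the 2 genes may not be separable.

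The stretch before the start of Slc7a1 is shown because it is the 1 RefSeq promoter window of these genes whose upstream bases all lie outside annotated exons. RefSeq windows on GRCm38.p6, 250 bases before to 50 after a start, were matched for 3 of the 7 genes (Slc7a1, Slc3a2 and Slc38a5, 4 windows in all), and none for Slc7a5, Slc7a3, Slc38a3 or Slc6a6. Slc7a1 and Slc3a2 are textbook targets of ATF4, the transcription factor of the amino acid response. Its composite element was searched as TGATGNAA on both strands, and capitals would mark a match. The 250 upstream bases, chr5:148399905-148400154, minus strand, read 5′ to 3′:
Slc7a1: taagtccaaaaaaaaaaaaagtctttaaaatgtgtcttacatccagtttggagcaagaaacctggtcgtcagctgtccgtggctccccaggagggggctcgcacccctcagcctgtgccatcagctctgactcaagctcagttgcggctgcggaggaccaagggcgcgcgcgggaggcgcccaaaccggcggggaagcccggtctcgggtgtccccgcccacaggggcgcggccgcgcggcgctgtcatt
The letters TGATGNAA were in 0 of the 4 windows and in 3.97% of all 32851 promoter windows of the same length, which describes these windows only.

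Over all cells, Slc6a6 was the most abundant of the 7 transcripts by reads, at 2014 CPM, and ranked 18 among all genes. It had 1165, 1771, 2393 and 2722 CPM on plates 521 to 524. Plate 521 was lowest and plate 524 highest.

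Both chains of the LAT1 exchanger were abundant and close to even over plates. Slc7a5 stood at 1198 CPM, with 1033, 1095, 1434 and 1234 CPM on plates 521 to 524. Slc3a2 stood at 1230 CPM, with 1102, 1267, 1282 and 1276 CPM. The highest plate was 1.39 times the lowest for Slc7a5 and 1.16 times for Slc3a2, the narrowest spreads of the 7 genes.

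The 2 cationic amino acid carriers were far apart in level. Slc7a1 stood at 811 CPM, with 787, 601, 959.9 and 884 CPM on plates 521 to 524. Slc7a3 stood at 31.1 CPM, with 9.77, 26.8, 50.4 and 37.9 CPM. No plate value of Slc7a3 came near any of Slc7a1.

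The 2 glutamine carriers moved in opposite ways over plates. Slc38a3 stood at 747 CPM, with 466, 659, 905 and 959.9 CPM on plates 521 to 524. Slc38a5 stood at 406 CPM, with 469.9, 515, 281 and 360.2 CPM. Slc38a3 was lower on plates 521 and 522 than on 523 and 524, and Slc38a5 was higher. A gap of at least 1.5-fold between the highest and lowest plate was found for 5 of the 7 genes (all but Slc7a5 and Slc3a2), and for 40.6% of the 8240 genes at 20 CPM or more, so such gaps were common in this table. Median genes with a read at fixed depth (100000 reads per cell) also differed, at 4162, 3890, 3262 and 3476 on plates 521 to 524, as did the 7 pericyte markers, at 21.0, 25.1, 134 and 84.3 summed CPM. Their part in the plate differences was not tested. Exact Poisson intervals (95%) are narrow beside the plate spread, for example 2010 to 2019 CPM for Slc6a6, and cover counting error only. They also take reads as independent, and Smart-seq2 reads are not independent molecules. The intervals of shares of cells below cover the sampling of cells within this 1 pooled sample, and not the spread over plates or animals.

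Smart-seq2 reads grow with transcript length, so the order of levels was also read per kilobase of annotated exon. On that scale of level Slc3a2 was highest at 349 CPM per kb (312 to 363 over plates) and Slc7a5 next at 323 (278 to 387). Slc6a6 followed at 238 (138 to 322), Slc38a5 at 181 (125 to 230.0) and Slc38a3 at 142 (88.3 to 182). Slc7a1, whose annotated exons span 11530 bases, stood at 70.3 CPM per kb (52.1 to 83.2), and Slc7a3 was at 8.21 (2.58 to 13.3). The plate ranges of each pair of neighbours from Slc3a2 down to Slc38a3 overlapped, and those from Slc38a3 to Slc7a1 to Slc7a3 did not. The length used joins the exons of all annotated transcripts of a gene and can exceed that of the transcript present. This order, and the gaps in it, depend on that length.

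**Figure D1:**
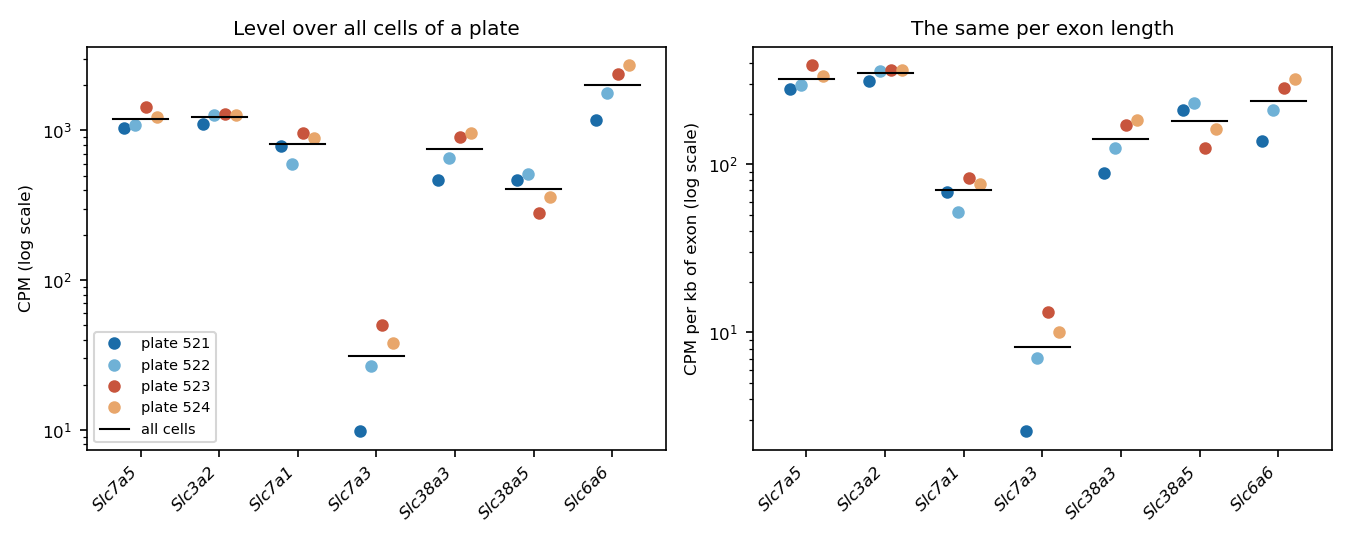
Level of each transporter on each plate (coloured points) and over all 1187 cells (black lines), as CPM of summed reads on the left and as CPM per kilobase of annotated exon on the right, both on log axes. Slc6a6 is highest by CPM (2014) and Slc3a2 per exon length (349), and Slc7a3 is lowest on both scales.

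From cell to cell the 7 transcripts ran from near-uniform to rare. With each cell thinned to 100000 reads, Slc3a2 had a read in 96.3% of cells (exact Clopper-Pearson 95% interval 95.1% to 97.3%; 98.1% without thinning). Slc7a5 had a read in 91.4% (89.7% to 92.9%; 94.8% unthinned) and Slc7a1 in 90.4% (88.6% to 92.0%; 93.6% unthinned). These 3 were thus read in most cells of the table.

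Reads of Slc6a6 were in 85.2% of cells after thinning (83.0% to 87.1%; 93.6% unthinned), and by plate in 67.3%, 77.2%, 96.8% and 99.0%. Slc38a3 was read in 79.1% (76.7% to 81.4%; 85.1% unthinned), and by plate in 65.7%, 74.5%, 85.6% and 90.4%. Slc38a5 was read in 56.3% (53.4% to 59.1%; 68.2% unthinned), and by plate in 69.7%, 62.1%, 43.9% and 49.4%. The shares of Slc6a6 and Slc38a3 thus followed the plate order of their levels, lowest on plate 521 and highest on 524. For Slc38a5 both were lowest on plate 523, but the share was highest on plate 521 and the level on plate 522.

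Slc7a3 had a read in 7.67% of thinned cells (6.22% to 9.33%; 9.01% unthinned), and by plate in 5.00%, 5.52%, 11.6% and 8.65%. Without thinning 107 of 1187 cells had a Slc7a3 read, at a median of 173 CPM among them and up to 3463 CPM. The 20 cells with the most Slc7a3 reads held 59.1% of all its reads, so its summed levels rest on few cells. The most even transcript was Slc3a2, whose top 10% of cells held 19.7% of the summed CPM. For Slc38a5 the top 10% held 46.0%.

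To follow the transporters along the vessel tree, each cell was scored on markers of the arterial (11 genes, such as Bmx, Sema3g and Gkn3), capillary (6 genes: Mfsd2a, Rgcc, Car4, Spock2, Slc16a1 and Tfrc) and venous zones (7 genes, such as Nr2f2, Vwf and Vcam1). No transporter described here is a marker. The top 20% of cells of each plate by a score form that zone's range, and cells in more than 1 range were set aside. The arterial range held 192 cells, the capillary range 196 and the venous range 169, while 554 cells were in no range and 76 in several. A range is a stretch of a score and not a cell type: 100, 165 and 77 cells lay within 0.1 of the arterial, capillary and venous threshold, in units of the score.

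Marker levels differed between plates before any ranking. From plate 521 to plate 524, summed capillary markers were at 2385, 3261, 5606 and 5258 CPM and summed venous markers at 2449, 1725, 639 and 455 CPM. Ranking within plate takes the same share of each plate only before cells of several ranges are set aside. After that, the arterial range held 53, 49, 38 and 52 cells on plates 521 to 524. Marker levels still differed, and the venous range of plate 524 had 1930 CPM of venous markers against 4875 on plate 521. Median genes with a read at fixed depth were 3856, 3602 and 4008 in the arterial, capillary and venous ranges, and mitochondrial reads were 1.26%, 1.35% and 1.46%. The part of these differences in the results below was not tested.

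Arterial against capillary cells gave the most calls: 5 of the 7 transporters were lower in the arterial range and 1, Slc6a6, was higher. A gene was called higher or lower when its pooled CPM differed by at least 1.5-fold, with 1 CPM added to both sides, and had the same direction within all 4 plates. By that rule 5.71% of 8715 genes were lower and 7.87% higher, or 13.6% in either direction. The median log2 ratio of the 7 transporters was -1.70, against 0.02 over all genes tested.

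Slc7a5 had 339, 468, 692 and 704 CPM in the arterial range on plates 521 to 524, and 1804, 1660, 1957 and 1648 CPM in the capillary range. Every capillary value lay above every arterial one. Pooled, it was 543 against 1771 CPM, 3.26-fold lower (log2 ratio -1.70; -2.41 to -1.22 over plates). With the top 10% of cells in place of 20% the log2 ratio was -2.43. At fixed depth 67.7% of arterial-range cells had a Slc7a5 read, against 100.0% of capillary-range cells.

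Its partner Slc3a2 was lower by less. It had 609, 839, 755 and 814 CPM in the arterial range and 1644, 1642, 1434 and 1467 CPM in the capillary range, again with no overlap. The pooled log2 ratio was -1.04, from -1.43 to -0.85 over plates.

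Slc7a1, the arginine and lysine carrier, had 458, 416, 599.6 and 542 CPM in the arterial range and 1061, 827, 1160 and 1174 CPM in the capillary range. The groups of plate values did not overlap, and the log2 ratio of -1.09 varied least over plates of all 7 genes (-1.21 to -0.95). At fixed depth 79.7% of arterial-range cells had a Slc7a1 read, against 99.0% of capillary-range cells.

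Slc7a3 was not called. It had 449 reads in all arterial-range cells and 3262 in all capillary-range cells, or 17.3, 2.50, 3.79 and 0.197 CPM against 8.20, 59.6, 61.1 and 58.5 CPM by plate. It was higher in the capillary range on plates 522, 523 and 524 and higher in the arterial range on plate 521. The pooled log2 ratio was -2.71, and -4.36 without plate 521, where it then met the rule. The top 10% of cells gave -4.39, and the rule was met in 5 of 17 alternative settings (other range widths, scores, marker subsets, scalings and plates left out).

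Slc38a3, the glutamine carrier SNAT3, had 91.6, 162, 444 and 481 CPM in the arterial range and 859, 1167, 1193 and 1165 CPM in the capillary range. All arterial values were below all capillary ones, and the gap was wider on plates 521 and 522 (log2 ratios -3.21 and -2.84) than on 523 and 524 (-1.42 and -1.27). Pooled, it was 3.78-fold lower.

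Slc38a5 (SNAT5) had 179, 209.9, 65.2 and 28.9 CPM in the arterial range and 315, 512, 434 and 413 CPM in the capillary range. The values did not overlap, and here the gap was wider on plates 523 and 524 (-2.72 and -3.79) than on 521 and 522 (-0.81 and -1.28). Pooled, the log2 ratio was -1.77. It was -3.97 with the top 10% of cells and -1.17 with the top 30%, and -1.87 when cells were ranked over all plates together, where the rule was not met because not every plate had the same direction.

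Slc6a6, the taurine carrier, went the other way. It had 3199, 3756, 3236 and 3297 CPM in the arterial range and 404, 1058, 1491 and 2298 CPM in the capillary range. All arterial values were higher than all capillary values, and the pooled level was 2.55-fold higher (log2 ratio 1.35). Within plates the log2 ratio fell from 2.98 on plate 521 through 1.83 and 1.12 to 0.52 on plate 524.

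**Figure D2:**
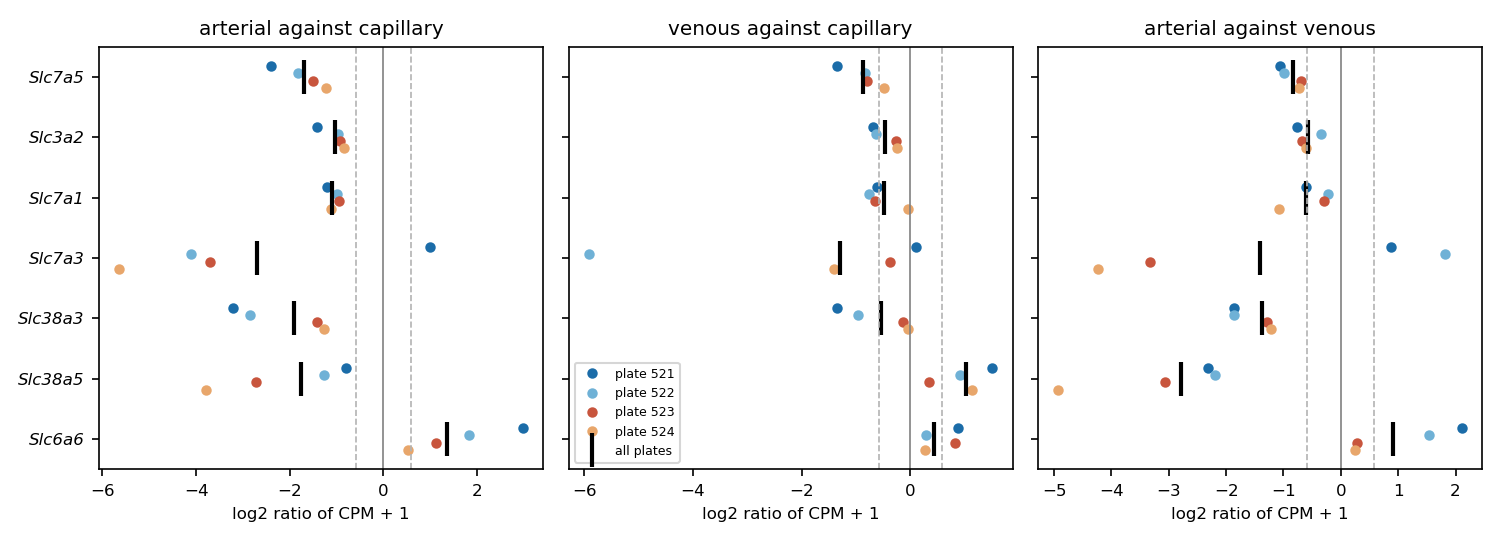
Log2 ratio of CPM + 1 for each transporter between marker ranges, pooled (black bars) and within each plate (coloured points); dashed lines mark 1.5-fold and the grey line no difference. In the arterial against capillary panel Slc7a5, Slc3a2, Slc7a1, Slc38a3 and Slc38a5 lie left of 0 on all 4 plates and Slc6a6 right of it, while Slc7a3 has plates on both sides.

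Venous and capillary cells differed in fewer of these genes: 1 of 7, Slc38a5, was higher in the venous range and 1, Slc7a5, was lower. Over 8709 genes 6.15% were called higher and 5.10% lower (11.3% in either direction), and the median log2 ratio was -0.48 for the 7 genes and 0.02 for all genes.

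Slc38a5 had 898, 966, 553 and 911 CPM in the venous range, each above the capillary value of its plate and above all 4 capillary values. Pooled, it was 842 against 416 CPM, 2.02-fold higher, with log2 ratios of 0.35 to 1.51 over plates. A read at fixed depth was found in 81.7% of venous-range cells (75.0% to 87.2%), 61.2% of capillary-range cells (54.0% to 68.1%) and 33.3% of arterial-range cells (26.7% to 40.5%). The unthinned shares were 84.0%, 70.4% and 49.5%. By plate, the shares at fixed depth were 87.2%, 85.7%, 67.6% and 83.7% in the venous range and 69.4%, 58.7%, 62.5% and 54.7% in the capillary range. The venous share was higher within each plate, but the lowest venous share was below the highest capillary one.

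Slc7a5 had 707, 934, 1122 and 1171 CPM in the venous range, below all 4 capillary values, and was 1.83-fold lower pooled (log2 ratio -0.87; -1.35 to -0.49 over plates). Slc3a2 had a log2 ratio of -0.46 and Slc7a1 of -0.48, both below 0 on each plate but short of 1.5-fold. Without plate 524, Slc7a1 was at -0.68 and met the rule.

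Slc38a3 had 337, 597, 1080 and 1121 CPM in the venous range. It lay well under the capillary value on plates 521 and 522 and near it on 523 and 524 (log2 ratio -0.54 pooled; -1.35 to -0.05 over plates). It met the rule in 6 of 17 alternatives, among them without plate 523 (-0.68) or without plate 524 (-0.75), and the pooled ratio was -1.04 with cells ranked over all plates.

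Slc6a6 had 739, 1294, 2648 and 2780 CPM in the venous range and was above the capillary value on each plate by 0.27 to 0.87 on the log2 scale, under 1.5-fold pooled (0.44). Ranked over all plates together, the ratio turned to -0.49, and with only the odd-numbered markers of each list it was 0.71 and met the rule. Slc7a3 had 1072 venous-range reads, with 0 of 42 cells read on plate 522. By an approximate limit of 3 counts, 0 of 42 is compatible with up to 7.14% of such cells having a read at this depth (3 of 42). This limit covers the sampling of cells only and is not the exact interval given for the other shares. It says nothing of cells that express the gene unread. Its ratio (-1.30 pooled) had plates on both sides of 0 and met the rule in 6 of 17 alternatives, without plate 521 among them (-1.39).

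Arterial against venous cells combined these patterns. Lower in the arterial range were 4 of the 7 genes (Slc7a5, Slc7a1, Slc38a3 and Slc38a5) and higher was 1 (Slc6a6); over 8856 genes 6.06% were called lower and 7.13% higher (13.2% in either direction). These 3 comparisons share cells, so their counts are not independent of each other. Slc38a5 had the largest gap, 121 against 842 CPM pooled, or 6.88-fold lower, with log2 ratios of -4.93 to -2.20 over plates. Its highest arterial plate value, 209.9 CPM, was below its lowest venous one, 553 CPM. The pooled log2 ratio was -5.04 with the top 10% of cells.

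Slc38a3 was 2.61-fold lower (log2 ratio -1.38; -1.87 to -1.22 over plates). Its arterial and venous plate values overlapped between plates, but the arterial value was lower within each plate. Slc7a5 was 1.78-fold lower (-0.83), -1.45 with the top 10% of cells and -0.49, short of the rule, with odd-numbered markers. Its arterial values, 339 to 704 CPM, were all below its venous values, 707 to 1171 CPM, with the highest arterial value next to the lowest venous one.

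Slc7a1 just met the rule (log2 ratio -0.60; -1.07 to -0.23 over plates), and without plate 524 it did not, at -0.40. It was called in 10 of 17 alternatives. Slc3a2 just missed it (-0.58; -0.76 to -0.34), and it was called lower in 8 of 17 alternatives, among them without plate 522 (-0.66) or without plate 524 (-0.59). Slc7a3 was under 20 CPM in both ranges (6.25 and 18.2 CPM) and had 2 plates in each direction. Slc6a6 was 1.88-fold higher in the arterial range (0.91), with log2 ratios of 2.11, 1.54, 0.29 and 0.25 on plates 521 to 524.

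The order of levels along the whole axis was read in 10 equal bins of cells ranked within plate by venous minus arterial score, bin 1 being the most arterial. Slc7a5 went from 332 CPM in bin 1 to 939 in bin 2, lay between 1231 and 1511 in bins 3 to 9 and was at 939 in bin 10. Slc3a2 had the same outline, at 615 CPM in bin 1, 1053 in bin 2, 1279 to 1476 in bins 3 to 9 and 1104 in bin 10. Slc7a1 went from 391 and 693 CPM to between 809.7 and 925 in bins 3 to 10. In these 3 genes the steepest steps thus lay at bins 1 to 3.

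Pooled over plates, Slc38a3 climbed over more of the axis, from 253, 467 and 712 CPM in bins 1 to 3 to between 823 and 932 in bins 4 to 10. The plates differed in this: on plate 521 it was highest in bin 3 (727 CPM) and stood at 438 CPM in bin 10. In bin 10 plates 522, 523 and 524 had 814, 1121 and 1100 CPM. Slc38a5 was lowest in bin 1 at 44.3 CPM and highest in bin 10 at 960.0 CPM. Between them it did not climb steadily, with 355, 333, 462, 339.9 and 538 CPM in bins 4 to 8. In bin 1 it had at most 107 CPM on any plate and in bin 10 974, 1040, 716 and 1095 CPM. The lowest plate of bin 10 was above the highest plate of bin 1. Slc6a6 had its highest level in bin 1, 3914 CPM, came down to 1414 CPM in bin 7 and stood at 2027 CPM in bin 10.

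**Figure D3:**
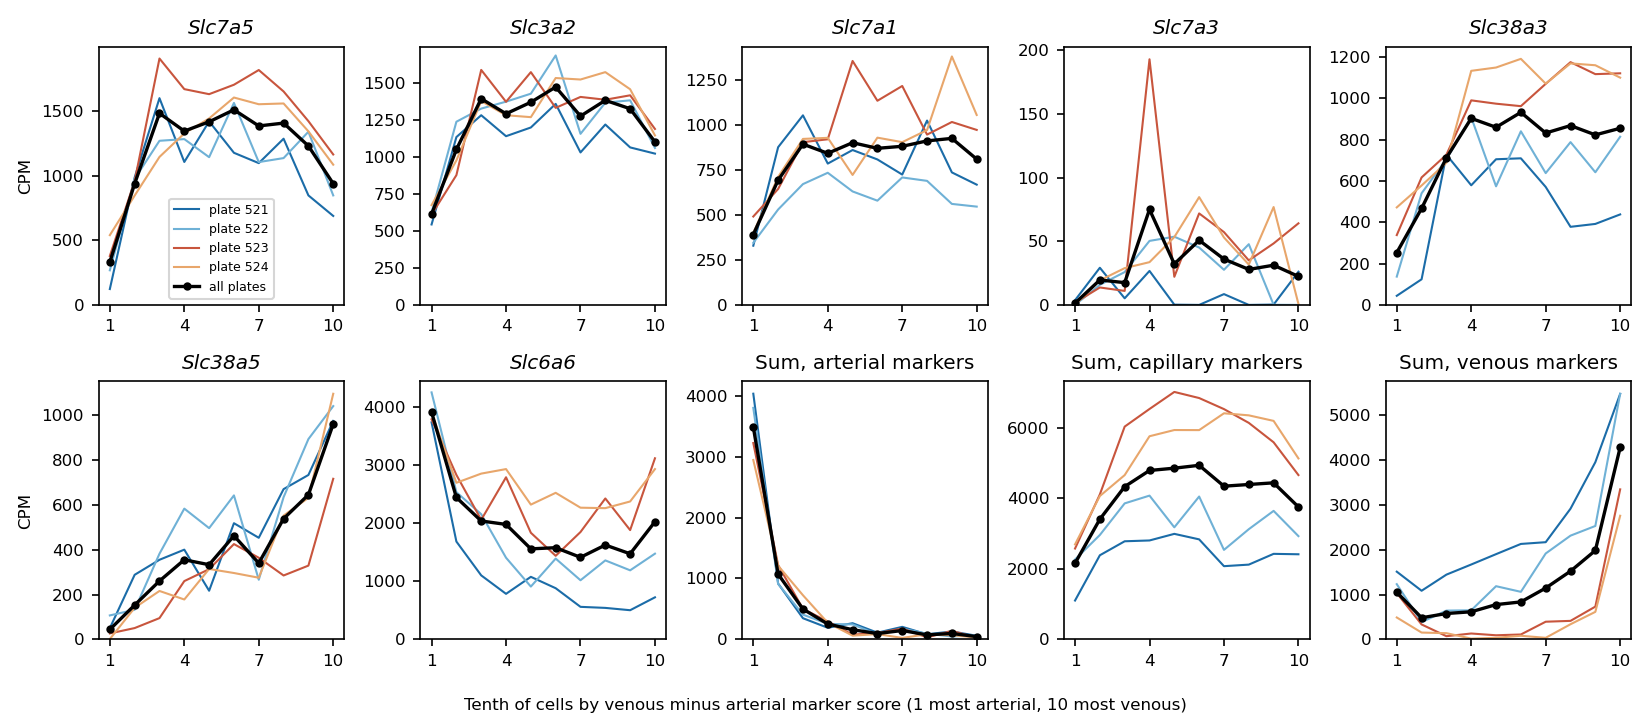
CPM of each transporter, and summed CPM of the arterial, capillary and venous markers, in 10 bins of 118 to 120 cells ranked within plate by venous minus arterial marker score, with each plate in colour and all plates in black. Slc6a6 is highest in bin 1 (3914 CPM), Slc38a5 in bin 10 (960.0 CPM), and Slc7a5 and Slc3a2 are low in bin 1 and flat in the middle.

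The plate differences of some transporters were not the same in each range. Slc6a6 in the arterial range differed by 1.17-fold between its highest and lowest plate. In the capillary range it differed by 5.69-fold (404 CPM on plate 521 and 2298 on plate 524), in the venous range by 3.76-fold and in cells of no range by 3.11-fold. In bin 1 of the axis the plates had 3739, 4255, 3791 and 3902 CPM. The spread of Slc6a6 over plates therefore lay outside the most arterial cells.

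In Slc38a3 the capillary range was the most even. Its plates differed by 5.25-fold in the arterial range and 3.32-fold in the venous range but by 1.39-fold in the capillary range. In the arterial range 39.6%, 40.8%, 68.4% and 75.0% of cells had a Slc38a3 read at fixed depth on plates 521 to 524. For Slc38a5 the spread was also widest in the arterial range (7.26-fold, with plates 523 and 524 low) and was 1.63-fold and 1.75-fold in the capillary and venous ranges. Slc7a5 differed by 2.08-fold between plates in the arterial range and 1.19-fold in the capillary range. The difference between ranges was not tested, and whether plate stands for genotype, animal or handling cannot be told apart here.

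**Figure D4:**
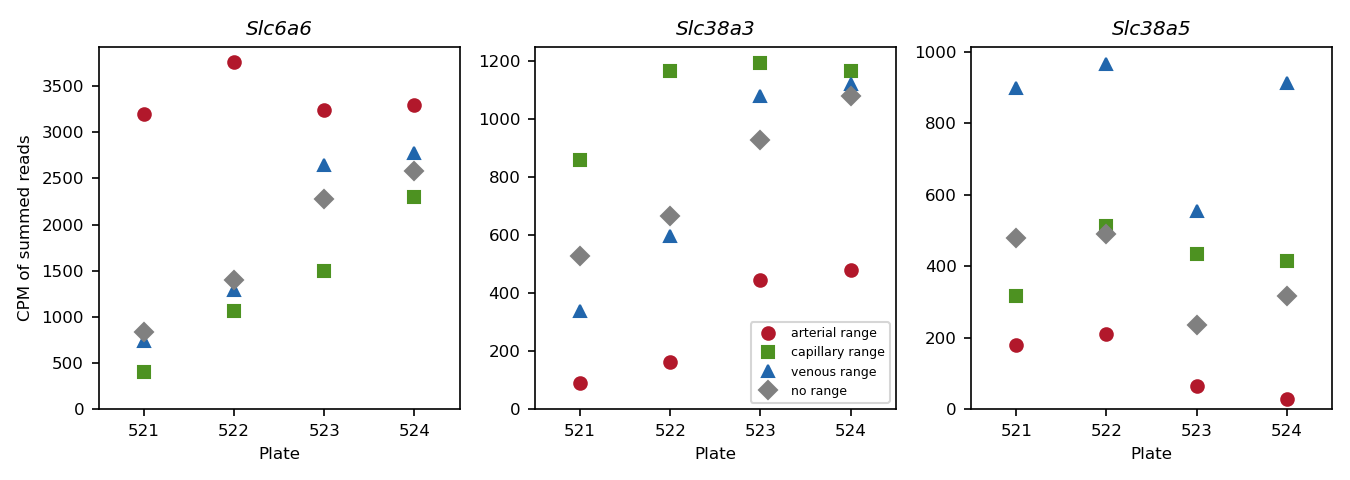
CPM of summed reads of Slc6a6, Slc38a3 and Slc38a5 on each plate in the arterial, capillary and venous ranges and in cells of no range. Slc6a6 is level over plates in the arterial range (3199 to 3756 CPM) and climbs from 404 to 2298 CPM in the capillary range, while Slc38a3 is closest to level in the capillary range (859 to 1193 CPM).

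Cell by cell, reads of both chains of the LAT1 exchanger were found in most cells. Slc7a5 had a read in 91.4% of cells and Slc3a2 in 96.3%, so most cells would have both even if the 2 were unrelated. Whether they were read together more often than that was not tested. At fixed depth 89.4% of cells had reads of both Slc7a5 and Slc3a2, 6.91% of Slc3a2 alone, 2.02% of Slc7a5 alone and 1.68% of neither. In the capillary range 195 of 196 cells had both. In the arterial range 65.1% had both, and Slc3a2 was read without Slc7a5 in 26.0% of cells against 3.55% in the venous range. This goes with the lower share of arterial-range cells with a Slc7a5 read (67.7%, against 91.1% for Slc3a2) and is not a separate result. 4F2hc also pairs with other light chains, as background.

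Of the glutamine carriers, Slc38a3 and Slc38a5 were read together in 45.8% of cells, where 79.1% had a read of Slc38a3 and 56.3% of Slc38a5. Slc38a3 alone was read in 18.0%, 26.2%, 45.3% and 43.6% of cells on plates 521 to 524, and Slc38a5 alone in 22.0%, 13.8%, 3.51% and 2.56%. In the arterial range 31.2% of cells had neither, against 2.04% in the capillary and 4.14% in the venous range. Of the 91 cells with a Slc7a3 read at fixed depth, 86 also had a Slc7a1 read, which 90.4% of all cells had.

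The number of these transporters read in a cell at fixed depth was 5 in the median cell, and no cell had 0. The median was 4 in the arterial range, 5 in the capillary and 6 in the venous range. The means were 4.29, 5.41 and 5.43, so by the mean the capillary and venous ranges were alike. In the arterial range 27.1% of cells had 3 or fewer, against 1.02% and 1.78% in the capillary and venous ranges.

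Over cells within plates (n = 1187 cells, Spearman's rho averaged over 4 plates, as a description), the closest pair was Slc7a5 with Slc3a2, at 0.48 (0.32 to 0.59 over plates). Slc7a5 with Slc38a3 was at 0.36 and with Slc7a1 at 0.33. Slc6a6 ran against Slc7a5 (-0.44), Slc3a2 (-0.35) and Slc38a3 (-0.25), with the same sign on each plate. Slc38a5 was within 0.15 of 0 against each of the others, and Slc7a3 within 0.07. The cells of a plate share library preparation and span a range of depth, and the rho of the 7 genes with total reads lay between -0.09 and -0.01. With genes read at fixed depth it lay between -0.13 (Slc7a5) and 0.15 (Slc38a5). With mitochondrial percent it lay between -0.01 (Slc6a6) and 0.17 (Slc38a5). For Slc38a5 these were as large as its rho with any other transporter.

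**Figure D5:**
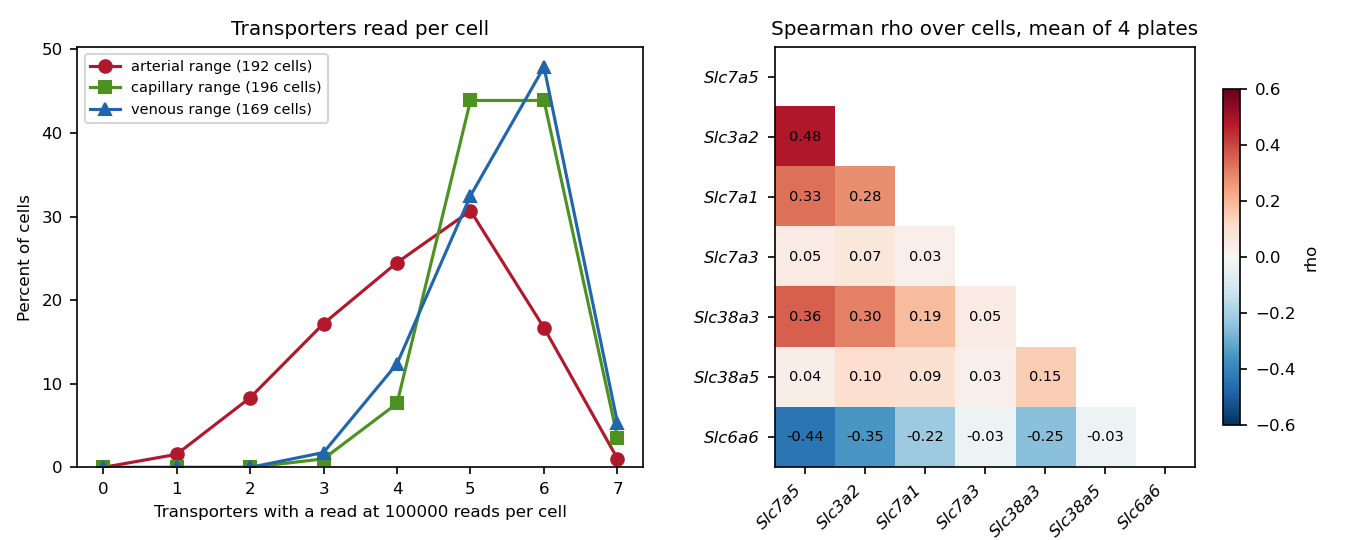
Left, percent of cells of each marker range by the number of the 7 transporters with a read at 100000 reads per cell; right, Spearman's rho between transporters over cells, averaged over 4 plates. Arterial-range cells peak at 5 transporters (30.7%) with a long lower side, and Slc6a6 has negative rho with each other transporter, from -0.44 to -0.03.

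Among 5530 genes read in at least 25% of cells, the genes whose pattern over cells was most like each transporter were looked up. For Slc7a5 these were Sparcl1 (0.49), a secreted matrix protein, Slc3a2 (0.48) and Ttyh2 (0.40). For Slc3a2 they were Slc7a5, Sparcl1 (0.42) and the organic anion transporter Slc22a8 (0.35). For Slc38a3 they were Bsg (0.45), which encodes basigin, the partner chain of monocarboxylate transporters, Slc22a8 (0.40) and the capillary marker Car4 (0.39). For Slc6a6 they were Mir8114 (0.43), Glul (0.43), which encodes glutamine synthetase, and Teddm2 (0.40), 3 entries that overlap in position on chromosome 1 and may share reads. For Slc7a1 only Slc7a5 reached 0.3 (0.33), and for Slc38a5 only Tmsb10 (0.31), an actin-binding thymosin.

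Of 30 other amino acid transporters listed beside these, 10 were at 20 CPM or more over all cells, the highest being the glutamate carrier Slc1a1 at 340.4 CPM. Of the 11 at that level in the arterial or capillary range, 2 were higher in arterial cells and 2 lower (over all genes, 7.87% and 5.71%), with a median log2 ratio of 0.11 against 0.02 for all genes. Slc1a1 was lower in the arterial range (152 against 542 CPM, log2 ratio -1.82), as was Slc38a6 (-0.72). Slc7a8, which encodes LAT2, another light chain of 4F2hc, was higher (28.6 against 5.51 CPM, 2.19), as was the broad neutral carrier Slc38a2 (0.71). Slc7a8 reached 20 CPM only in the range where it was higher. On the plate nearest to no difference, Slc1a1, Slc38a6, Slc7a8 and Slc38a2 were at -1.54, -0.25, 0.53 and 0.17.

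Against venous cells, 13 of the 30 were at 20 CPM or more in the arterial or venous range. Of these, 2 were higher in the arterial range and 1 lower (over all genes, 7.13% and 6.06%). Slc7a8 was higher in the arterial range (28.6 against 0.153 CPM, log2 ratio 4.68), as was the lysosomal carrier Slc36a1 (35.3 against 10.6 CPM, 1.64). The cystine-glutamate exchanger Slc7a11 was lower (10.1 against 29.5 CPM, -1.46). Each of these reached 20 CPM only in the range where it was higher, so these counts, like the background shares, depend on that filter. Between the venous and capillary ranges, 12 were at 20 CPM or more in either. Of these, 4 were higher in venous cells and 3 lower (over all genes, 6.15% and 5.10%). Higher in venous cells were Slc7a11 (2.08), the glutamate carrier Slc1a3 (1.21, also an astrocyte marker) and, each at 0.64, Slc36a4 and Slc38a2. On their lowest plate these were at 0.20, 0.02, 0.04 and 0.06, so each had a plate with little difference. Lower were Slc1a1 (-1.38), Slc36a1 (-1.12) and Slc43a2 (-0.91), at -0.58, -0.39 and -0.35 on the plate nearest to no difference. Here Slc7a11, Slc1a3 and Slc36a1 reached 20 CPM only in the range where they were higher. The carriers of this list thus had no common direction.

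The amino acid response list holds 16 genes, targets of ATF4 and Atf4 itself. Of 8 members at 20 CPM or more in the arterial or capillary range, 3 were higher in arterial cells and 0 lower (median log2 ratio 0.40). Over all genes the shares were 7.87% and 5.71%, so that a count of 0 among 8 is near the background. The 3 were Atf3 (365 against 125 CPM, 1.54), Pck2 (0.81) and Shmt2 (0.70). On their lowest plate these were at 0.56, 0.18 and 0.09, so Pck2 and Shmt2 had a plate with little difference. Atf3 is also an immediate early gene. In venous against capillary cells 3 of 8 were higher and 0 lower, against 6.15% and 5.10% over all genes: Atf3 (1.49), Ddit3 (0.83) and Trib3 (0.79). Their lowest plates were at 0.39, 0.28 and 0.35, and Ddit3 reached 20 CPM only in the venous range (32.9 against 18.1 CPM). Asns, the asparagine synthetase, was not called in either comparison (0.28 and 0.46). In arterial against venous cells 1 of 7 was called, Shmt2 (1.03, and 0.48 on its lowest plate), against 7.13% called higher over all genes.

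Summed markers of pericytes, smooth muscle, astrocytes, fibroblasts and erythroid cells differed between the ranges. Pericyte markers summed to 48.2, 72.8 and 31.2 CPM in the arterial, capillary and venous ranges (7 markers), and smooth muscle markers (5) to 18.9, 8.61 and 15.0 CPM. The 7 astrocyte markers summed to 244, 306 and 149 CPM, of which Gja1 made 209.9, 264 and 96.5 CPM. The order of these sums was thus that of Gja1, and the other astrocyte markers together were highest in the venous range. Fibroblast markers (5) summed to 65.7, 2.74 and 4.32 CPM, and erythroid markers (5) to 2.52, 57.4 and 8.32 CPM. Without the 21 cells that had 3 or more markers of another type at 100 CPM, the same genes were called in the arterial against capillary and venous against capillary comparisons, and Slc3a2 was added to those lower in the arterial against venous comparison.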

How the data were processed

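The deposited file holds raw counts of reads per gene and cell, per the file headers 1 column for each plate well. The submitters' processing notes list featureCounts, Subread 1.4.6-p5, TopHat2 2.1.1 and SAMtools 0.1.18, with GRCm38 and mm10 as builds. Whether counting used strand was not given in the sources used here. The 7 genes, marker lists and pathway lists were chosen with earlier results of these data known.

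CPM, ratios, thinning and ranks were computed with Python 3.11.15, numpy 2.4.6 and scipy 1.17.1. A zone score is the mean over markers read in at least 5% of cells of log2(CPM + 1), standardised within plate. Background shares are over genes at 20 CPM or more on either side. Named were all 7 genes, up to 3 genes most like each, and up to 3 called members of a pathway list per direction, by size; 1 further venous gene tied at the limit is also named, chosen after its values were seen, as was Asns. The comparison was tested on simulated data. No cell was removed and no doublet caller was run. Of the marker lists of other cell types, 1 is not reported here.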

Additional observations from a re-analysis of the deposited data

Results flagged for a closer look

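Of 28 sets of 4 plate values (the level and the 3 ratios of each of the 7 genes), 1 had a plate far from the others by Dixon's criterion: the Slc3a2 level on plate 521, 1102 CPM against 1267 to 1282 CPM on the other plates. Chance flags about 1 set in 20, and plates are batches of 1 pooled sample.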

How the results depend on the processing

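Each comparison was recomputed under 17 alternatives. These were other widths of the ranges, other scores and marker subsets, the mean of each cell's CPM in place of summed reads, and 2 other scalings. The rest were a prior of 0.1 CPM, a 2-fold rule, leaving out cells with markers of another type, and leaving out each plate. In arterial against capillary cells, Slc7a5, Slc3a2, Slc7a1 and Slc38a3 stayed lower and Slc6a6 higher by the rule under all 17, and Slc38a5 lower under 16. No called ratio changed sign; of the others, Slc6a6 in venous against capillary cells did with ranking over all plates (-0.49). In venous against capillary cells, Slc38a5 stayed higher under 17 and Slc7a5 lower under 16. The number of genes called lower there, 1 as reported, was 3 with the top 30% of cells, 4 with ranking over all plates, 3 and 2 with odd- and even-numbered markers, 2 without Tfrc and Slc16a1, 2 with median-of-ratios scaling, 0 with the 2-fold rule, and 1 to 3 when a plate was left out; the number called higher was 2 with odd-numbered markers. In arterial against venous cells the number called lower, 4 as reported, ran from 2 to 6: it was 2 with odd-numbered markers and 2 with the 2-fold rule, under which 0 were called higher, 6 with even-numbered markers, and 3 with the top 30% of cells, ranking over all plates, scores by number of markers read or median-of-ratios scaling. The cause of these differences was not tested, apart from the stricter 2-fold rule. No scaling moved the median of all genes by over 0.1. Slc7a3 is limited by its reads, found in 107 cells. No paired analysis was possible because no column carries a genotype and the replicate numbers are only in accession order.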
